A study of Mus musculus with 3 samples.

Results

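RNA of 50 genes that license replication origins, unwind and copy DNA, supply its nucleotides and restore chromatin behind the fork was compared among 3 libraries of mouse aortic endothelial cells (MAECs), the lining cells of the aorta, bought as a primary culture. The members were chosen by gene symbol, and all 50 were listed once among the 18287 genes of the deposited tables. One library came from untreated control cells. The second was made after 30 min with 5 mU/mL of glucose oxidase, which generates hydrogen peroxide in the medium. The third had both that exposure and ethyl-2-hydroxybenzylamine (Et2HOBA, 0.2 mM, 24 h), known as a scavenger of isolevuglandins, which are reactive products of lipid peroxidation; it is called the combined-treatment library here. The order of the exposures, the time from glucose oxidase to harvest and the growth state of the cultures are not given in the labels, and no cells given Et2HOBA alone were analysed here.

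Replication is prepared in G1, when the origin recognition complex, Cdc6 and Cdt1 load the MCM2-7 helicase onto DNA, and it begins in S phase, when Cdc45 and GINS activate that helicase and the polymerases follow. Many of these genes are transcribed by E2F factors as cells pass from G1 into S phase, whereas other subunits of the same complexes are made throughout the cell cycle. Endothelial cells of the adult aorta are mostly quiescent, and cultured ones divide.

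Each group had 1 library, so no difference below has a replicate check and none was tested between conditions. Total depth was 35005089 to 40212212 reads; the reads of the glucose oxidase library were recovered as whole numbers from deposited log2 differences. Counts were divided by size factors (normalized counts), and a log2 ratio is the log2 ratio of normalized count plus 10. A gene is counted as lower or higher when that ratio reached 1 in size. Folds are ratios of normalized counts with nothing added, and the 95% intervals beside them are exact (Clopper-Pearson), compare the reads of 2 libraries and cover counting error only. All 10 endothelial markers examined were detected, with summed normalized counts of 348902, 222288 and 201919 in control, glucose oxidase and combined treatment. They did not all move with this sum. Tie1, Kdr, Vwf, Cldn5, Tek, Erg, Eng and Pecam1 had fewer reads than control in both treated libraries. Emcn had more in both, with 5373, 6333 and 7936 reads, and Cdh5 had 55360, 45034 and 63665. Of 6 leukocyte markers 2 were listed, summing to 7966, 17692 and 26775, nearly all Cd68; Csf1r had at most 12 reads, and Ptprc, Adgre1, Itgam and Cd3e were not listed. Of 6 fibroblast markers 3 were listed, summing to 151, 1448 and 2807, mostly Pdgfra, and Col1a2, Dcn and Lum were not listed. Of 6 smooth muscle markers 5 summed to 4859, 3717 and 3943, mostly Smtn, and the others did not all move with this sum. Myh11 had 19, 35 and 73 reads, Acta2 8, 18 and 13, Des 8, 9 and 9, and Tagln 9, 9 and 4. Of 5 epithelial markers 2 summed to 54.3, 44.5 and 70.3. The part of these shifts in the results below was not tested.

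Most of the 50 members lay below control in the treated libraries, 42 after glucose oxidase and 45 after the combined treatment. Of the 50, 46 lay further down with the combined treatment than with glucose oxidase alone, though fewer passed the limit. Over all 18287 listed genes, 9349, 9146 and 9135 had a negative log2 ratio in these 3 comparisons. Together the 50 members held 88764 reads in control, 54312 after glucose oxidase and 47446 after the combined treatment, although that last library was the deepest. After glucose oxidase 14 of the 50 were lower than in control and 0 higher, where 8.6% of all listed genes were lower and 4.07% higher; the median log2 ratio of the members was -0.63, against -0.01 over all genes. After the combined treatment 27 were lower and 0 higher, where 8.04% of all genes were lower and 6.66% higher, and the median was -1.11, against 0.00 over all genes. Among protein-coding genes alone, which include all 50, 4.76% were lower and 4.53% higher after glucose oxidase, and 9.3% lower and 7.33% higher after the combined treatment. Between the treated libraries 4 members, Cdc6, Mcm5, Cdc45 and Pole, were lower with the combined treatment and 0 higher, where 2.15% of all genes were lower and 6.39% higher, and the median was -0.41, against 0.00 over all genes. Among protein-coding genes 2.35% were lower and 0.971% higher there. Each library enters 2 of these comparisons, so they are not independent of each other. In bulk RNA, fewer cells in S phase and less of these RNAs per cell cannot be told apart.

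At a limit of 0.5 in place of 1, 31 members were lower after glucose oxidase, where 20.3% of all genes were, and 37 after the combined treatment, where 20.9% were. At this limit 2 members were higher with the combined treatment, Orc4 and Cdt1, and 0 after glucose oxidase, where 19.2% and 13.5% of all genes were higher. At a limit of 2, 0 and 6 members were lower, where 2.11% and 2.17% of all genes were. The 6 were Cdc6, Pole, Mcm5, Cdc45, Tk1 and Mcm6. Among the 13285 protein-coding genes, more were lower with the combined treatment than after glucose oxidase at both limits. After glucose oxidase and the combined treatment, 1792 and 2851 of them were lower by 0.5, and 86 and 374 by 2. On the compressed log2 scale of the deposited tables, 7 and 24 members were lower by 1, where 2.5% and 5.17% of all genes were.

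Counting error was small beside most of these differences. The interval lay wholly below equal levels for 41 of the 50 members after glucose oxidase, where this held for 30.6% of all genes, and for 42 after the combined treatment, where it held for 30.8%. It lay wholly above for 4 and 5 members, where this held for 29.7% and 33.2% of all genes. The 5 that were above control with the combined treatment were Orc2, Orc3, Orc4, Cdt1 and Pold3. Between the treated libraries the interval lay below equal levels for 36 members and above for 3, against 25% and 29.7% of all genes. Among the 11341 genes with a mean normalized count of at least 100, which include all 50 members, the lowest 200 with the combined treatment against control held 5 members, Cdc6, Pole, Mcm5, Cdc45 and Tk1, and the lowest 200 after glucose oxidase held 0.

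**Figure D1:**
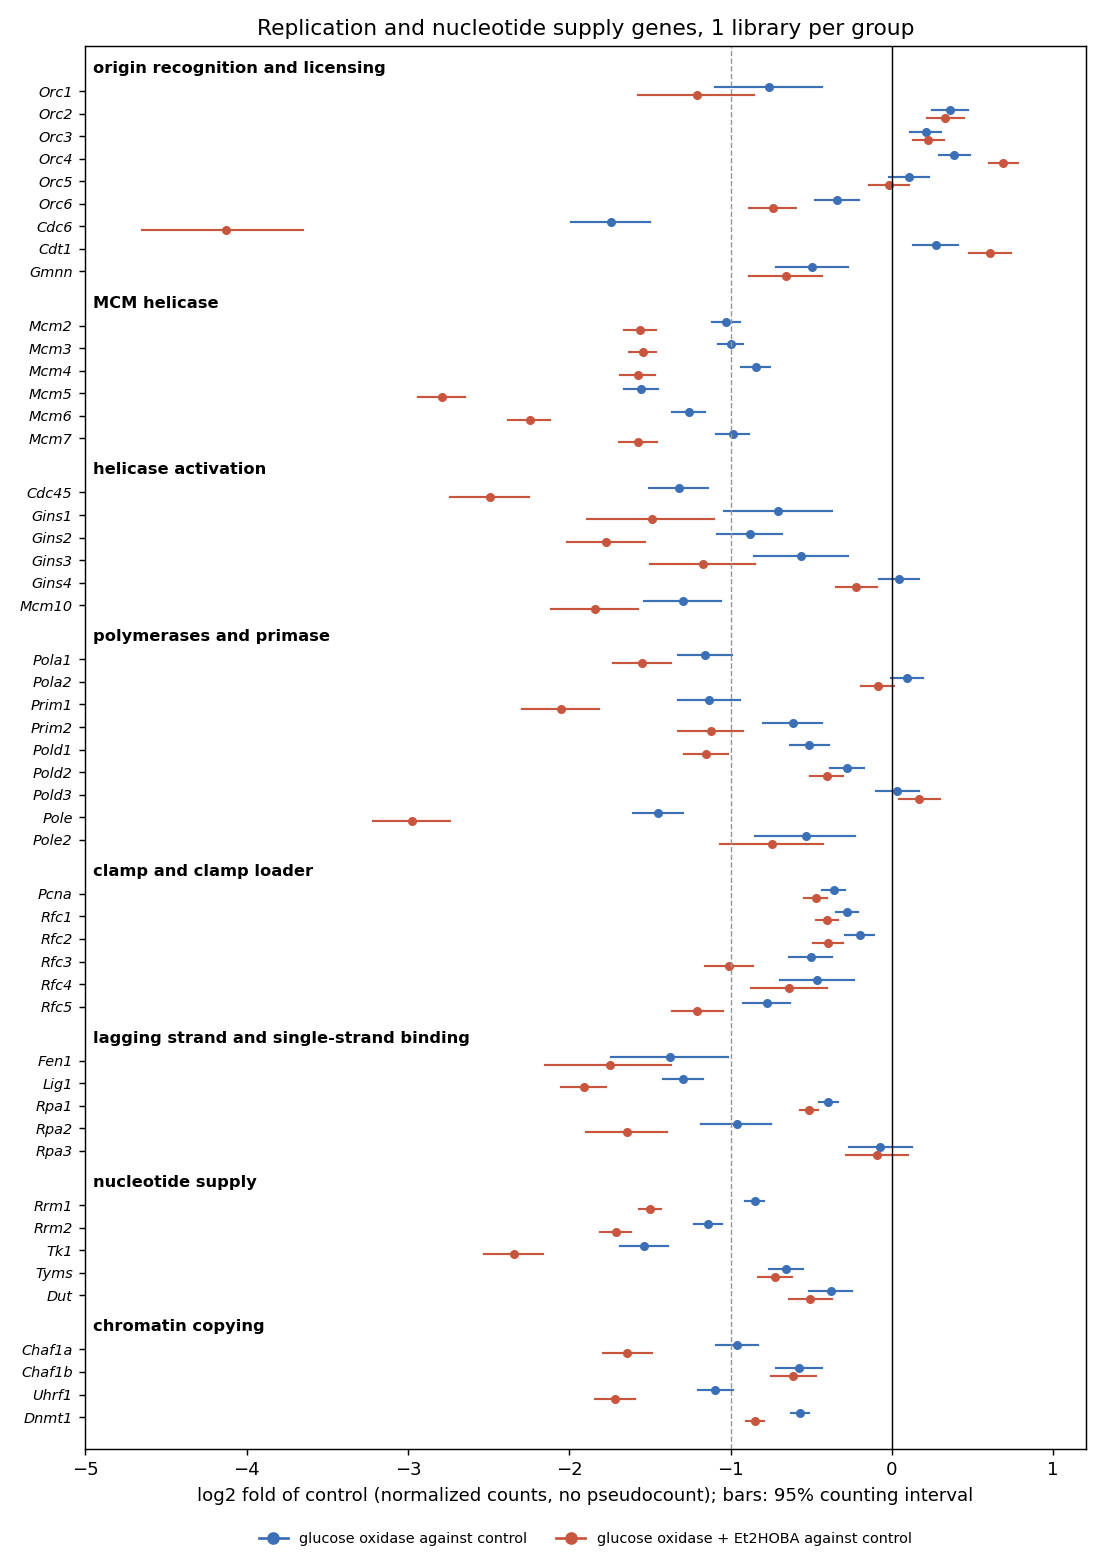
The log2 fold of control (horizontal axis, normalized counts with no pseudocount) of each of the 50 members after glucose oxidase (blue) and after the combined treatment (red), grouped by role; bars are 95% counting intervals and the dashed line marks a log2 fold of -1. The 6 MCM genes all lie left of 0 in both libraries, and Cdc6 lies farthest left, while Orc2 to Orc5, Cdt1, Gins4, Pola2, Pold3 and Rpa3 lie near or right of 0.

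**Figure D2:**
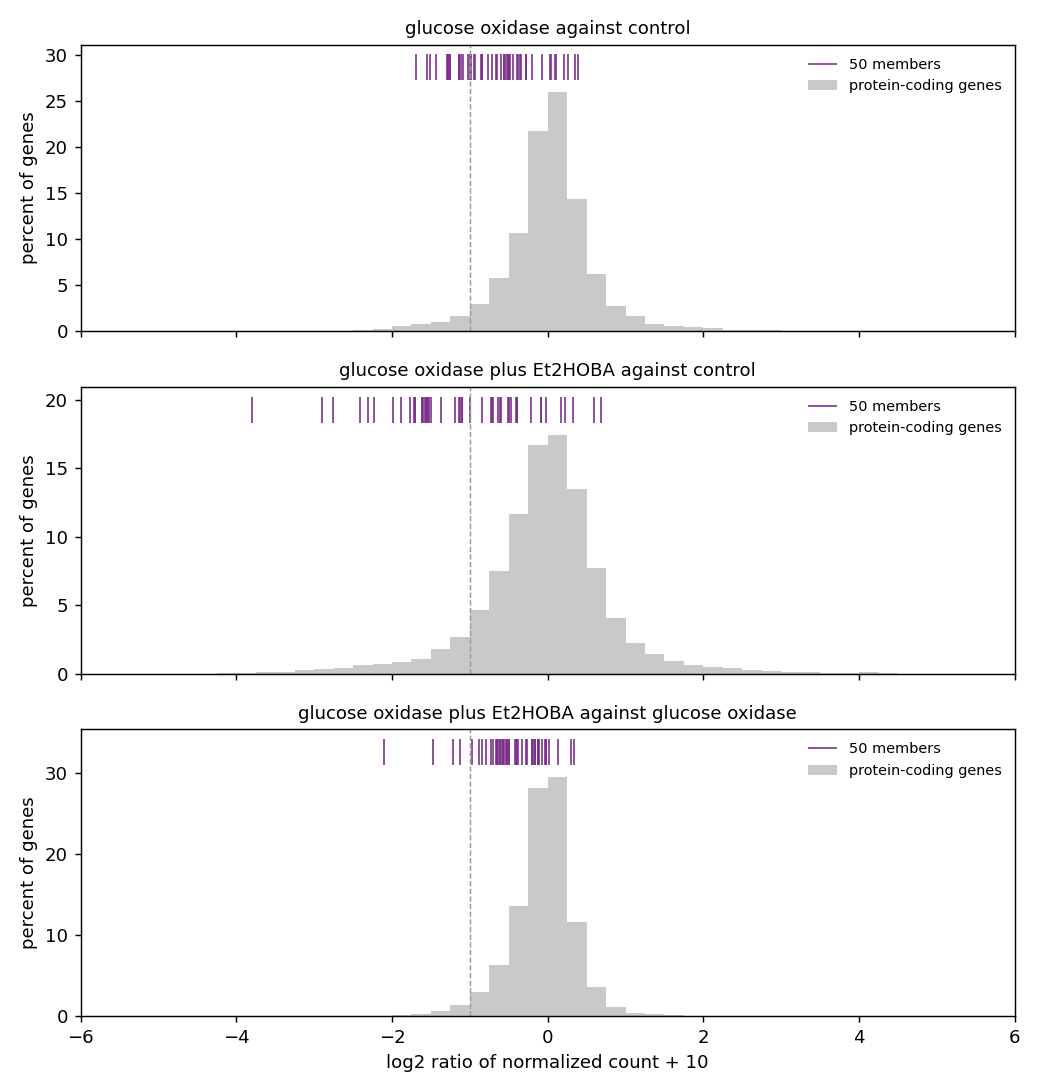
The percent of all protein-coding genes (grey bars, vertical axis) by log2 ratio of normalized count plus 10 (horizontal axis) in the 3 comparisons, with the 50 members as purple ticks. The medians of the members are -0.63, -1.11 and -0.41 from top to bottom, and the dashed line marks -1.

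Licensing genes split into 2 kinds. Cdc6, the ATPase that joins the origin recognition complex to load the helicase (ENSMUSG00000017499.15, chromosome 11, 98907801 to 98923940 on the mm10 build used throughout), had 644 control reads, 180 with glucose oxidase and 37 with the combined treatment. Reads are given in this order from here on. It was the lowest of all members in both libraries, at 0.299 of control (95% interval 0.252 to 0.353) and 0.0571 (0.0398 to 0.0795), and the combined-treatment level was 0.191 of that after glucose oxidase (0.130 to 0.273). Orc1, the ORC subunit whose level is known to vary through the cell cycle, had 216, 119 and 94 reads, with log2 ratios against control of -0.72 and -1.13. Orc6 had 1013, 748 and 611 reads, below control in both but within the limit.

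The other ORC subunits were not lower. Orc4, at 1571, 1922 and 2552 reads, had the highest log2 ratios of all members, 0.38 and 0.69. Orc2 had 1162, 1394 and 1472 reads and Orc3 had 1648, 1783 and 1938, both a little above control. Orc5 had 1063, 1069 and 1057 reads, and its fold after the combined treatment was 0.988 (0.907 to 1.08), the smallest difference in this role group. Within the 6-subunit complex the log2 ratios with the combined treatment thus spanned 1.81 units.

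Cdt1, which brings MCM2-7 to origins (ENSMUSG00000006585.3, chromosome 8, 122568015 to 122573554), lay above control in each treated library but within the limit. It had 788, 889 and 1207 reads, 1.21 (1.09 to 1.33) and 1.52 (1.39 to 1.67) times control. Gmnn encodes geminin, the inhibitor of Cdt1, and had 417, 277 and 266 reads. The reads of Cdt1 per read of Gmnn were 1.89 in control (95% interval 1.68 to 2.13), 3.21 after glucose oxidase (2.80 to 3.69) and 4.54 after the combined treatment (3.97 to 5.20). The inhibitor and its target therefore lay on opposite sides of control in both treated libraries.

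All 6 genes of the MCM2-7 helicase, the ring that unwinds DNA, were lower with the combined treatment. Mcm2 had 3348, 1535 and 1142 reads, at 0.490 (0.461 to 0.521) and 0.339 (0.317 to 0.363) of control. Mcm3 had 4254, 1989 and 1467 reads, at 0.5 (0.474 to 0.527) and 0.343 (0.323 to 0.364). Mcm4 had 2886, 1505 and 974 reads, at 0.557 (0.523 to 0.594) and 0.335 (0.312 to 0.361). These 3 genes and Mcm7, which had 2436, 1149 and 824 reads, at 0.504 (0.470 to 0.541) and 0.336 (0.310 to 0.364), lay close together.

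Mcm5 and Mcm6 were lower than the other 4. Mcm5 (ENSMUSG00000005410.6, chromosome 8, 75109569 to 75128439) had 3041, 967 and 443 reads, at 0.340 (0.316 to 0.366) and 0.145 (0.131 to 0.160) of control. Mcm6 had 2767, 1081 and 587 reads, at 0.418 (0.389 to 0.448) and 0.211 (0.192 to 0.231). Their intervals with the combined treatment lie wholly below those of Mcm2, Mcm3, Mcm4 and Mcm7. After glucose oxidase Mcm2, Mcm5 and Mcm6 passed the limit. Mcm3 and Mcm7 lay just inside it, at -0.997 and -0.98, and Mcm4 lay further inside, at -0.84.

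Because the 6 proteins form a ring with 1 of each, their RNA levels were also compared per kilobase of the longest protein-coding transcript. On that scale Mcm3 was highest in every library, with 1360, 680 and 466 normalized counts per kilobase. The lowest was Mcm6 in control and after glucose oxidase, at 616 and 257, and Mcm5 after the combined treatment, at 126. The highest level per kilobase was 2.21 times the lowest in control, 2.64 times after glucose oxidase and 3.69 times after the combined treatment. With lengths of all exons joined, a choice made after the values were seen, these ratios were 2.36, 2.40 and 3.52; Mcm3 was still highest and Mcm5 still lowest with the combined treatment, but Mcm2 was lowest in the other libraries. Mcm7 shares 34.2% of the 50-base stretches of its longest transcript with other genes, including Cops6 and Ap4m1 on the opposite strand, so its count depends on how such reads were assigned; for the other 5 the share was at most 1.55%.

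**Figure D3:**
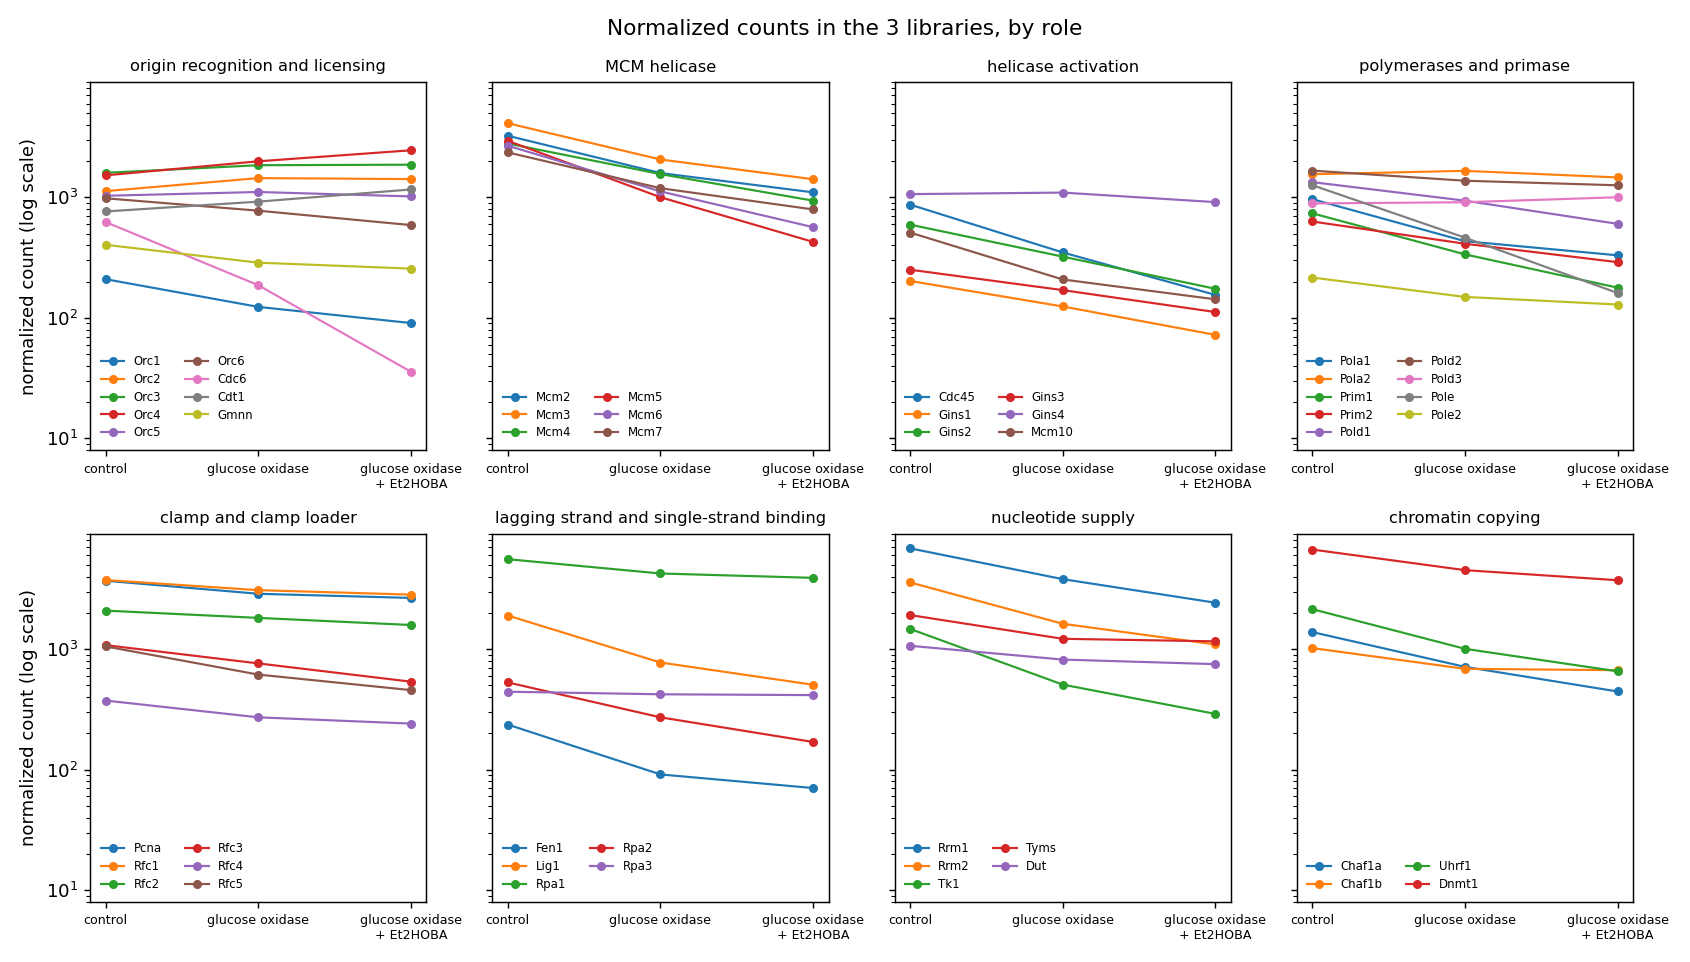
Normalized counts (vertical axis, log scale) of the 50 members in the 3 libraries (horizontal axis), one panel per role; each point is 1 library and lines only join the values of a gene. The MCM lines lie closer together in control than with the combined treatment, where Mcm5 is lowest, and the steepest line is that of Cdc6.

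The 300 bases around the start of transcription were examined for the 42 members found by symbol in the RefSeq promoter table (build GRCm38.p6); Mcm4, Gins1, Gins2, Gins4, Gmnn, Pole, Prim2 and Rfc2 were not found there. The window runs from 250 bases before to 50 bases after each start, a gene with several starts counts once, and a RefSeq start need not be the start of the gene in the deposited coordinates. The E2F consensus searched was TTT, then 2 bases that are each C or G, then CGC, on either strand, so TTTCCCGC, TTTCGCGC, TTTGCCGC or TTTGGCGC or the reverse complement of one. It was present for 17 of the 42 members (40.5%), among them Cdc6, Mcm3, Mcm5, Mcm6, Mcm7, Pola1, Lig1 and Uhrf1, for 4.43% of the 11410 listed genes found in the table, counted the same way, and in 2.26% of all 32851 promoters of that length. The median log2 ratio with the combined treatment was -1.14 for the 17 and -0.72 for the 25 without the letters, with 11 lower in each set. The 25 include Cdc45 and Tk1, at -2.42 and -2.31, which were among the lowest members. Among other listed genes found in the table, 9.41% of the 489 with the letters and 8.93% of the 10879 without were lower.

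The promoters below show that the letters occur both in members that were far below control and in members that were not. Cdc6, Mcm5 and Mcm6 were 3 of the lowest; Cdt1 and Pold3 had ratios of 0.27 and 0.03 after glucose oxidase and 0.60 and 0.17 with the combined treatment, of which the 0.03 of Pold3 lay below 0 with total-count scaling. Each is printed 5′ to 3′ along the gene, with the E2F consensus letters in capitals. In Mcm5, and at the first of 2 places in Mcm6, matches on both strands overlap and form 1 longer run of capitals.
Cdc6 (chr11:98907901-98908200, plus strand): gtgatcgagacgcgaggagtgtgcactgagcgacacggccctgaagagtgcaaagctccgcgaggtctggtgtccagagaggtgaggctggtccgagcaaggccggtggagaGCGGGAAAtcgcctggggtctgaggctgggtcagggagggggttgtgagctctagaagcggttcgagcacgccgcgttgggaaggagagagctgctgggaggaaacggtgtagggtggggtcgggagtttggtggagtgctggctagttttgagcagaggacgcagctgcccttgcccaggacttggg
Mcm5 (chr8:75109259-75109558, plus strand): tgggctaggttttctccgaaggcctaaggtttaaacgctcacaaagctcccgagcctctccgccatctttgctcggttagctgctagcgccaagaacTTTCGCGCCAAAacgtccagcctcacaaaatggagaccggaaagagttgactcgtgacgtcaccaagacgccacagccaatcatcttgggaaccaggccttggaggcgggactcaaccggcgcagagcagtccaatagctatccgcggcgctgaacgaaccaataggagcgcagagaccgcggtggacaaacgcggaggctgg
Mcm6 (chr1:128359656-128359955, minus strand): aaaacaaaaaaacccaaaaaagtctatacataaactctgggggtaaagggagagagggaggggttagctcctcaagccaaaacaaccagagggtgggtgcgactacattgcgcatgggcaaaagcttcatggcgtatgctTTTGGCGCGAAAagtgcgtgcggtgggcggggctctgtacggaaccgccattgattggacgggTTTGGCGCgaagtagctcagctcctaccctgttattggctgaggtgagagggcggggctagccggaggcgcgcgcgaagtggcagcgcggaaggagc
Cdt1 (chr8:122567765-122568064, plus strand): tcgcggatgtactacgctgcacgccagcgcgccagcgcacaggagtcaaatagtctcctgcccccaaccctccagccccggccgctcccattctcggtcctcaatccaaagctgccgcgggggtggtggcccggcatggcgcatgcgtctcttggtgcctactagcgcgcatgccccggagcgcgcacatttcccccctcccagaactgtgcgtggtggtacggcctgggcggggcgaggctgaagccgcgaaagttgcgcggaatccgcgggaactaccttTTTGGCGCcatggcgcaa
Pold3 (chr7:100121453-100121752, minus strand): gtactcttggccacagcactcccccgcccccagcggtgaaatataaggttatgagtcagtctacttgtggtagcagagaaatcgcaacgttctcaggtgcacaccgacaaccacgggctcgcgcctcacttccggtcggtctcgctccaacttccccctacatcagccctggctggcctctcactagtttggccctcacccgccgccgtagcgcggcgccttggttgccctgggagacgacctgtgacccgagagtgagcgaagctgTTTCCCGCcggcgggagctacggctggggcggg
Counted from the start of transcription, with negative positions before it, the match in Cdc6 begins at -138, those in Mcm5 at -153 and -149, and those in Mcm6 at -110, -106 and -47. In Cdt1 and Pold3 the match lies after the start, at 33 and 18. The CCAAT letters, on either strand, were found for 26 of the 42 members (61.9%), for 42.7% of listed genes and in 37.4% of all promoters. Those 26 had a median of -1.51 with the combined treatment and the other 16 one of -0.66. Among other listed genes with a promoter, 9.86% of the 4850 with CCAAT and 8.27% of the 6518 without were lower there. The medians of these other genes were -0.05 and 0.03. TTTGAA, the core of the cell cycle genes homology region known from genes of later cell cycle phases, was found for 6 of 42 members (14.3%), for 14.9% of listed genes and in 17.9% of all promoters. Among other listed genes with a promoter, 13.3% of the 1691 with TTTGAA and 8.18% of the 9677 without were lower with the combined treatment. The member promoters had a median GC content of 61.3%, against 52.7% over all promoters, and the part of base composition in these shares was not tested. A match describes the letters and is no evidence of binding.

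Of the 6 genes that turn the loaded ring into an active helicase, 5 were lower with the combined treatment. Cdc45, which travels with MCM2-7 and GINS at the fork (ENSMUSG00000000028.15, chromosome 16, 18780447 to 18811987), had 899, 337 and 161 reads, at 0.401 (0.353 to 0.455) and 0.178 (0.150 to 0.211) of control. Mcm10, which helps fire the assembled helicase, had 527, 201 and 148 reads and log2 ratios of -1.25 and -1.77. Gins1 had 209, 120 and 75 reads, Gins2 had 613, 311 and 181, and Gins3 had 259, 164 and 116. Their log2 ratios lay between -0.54 and -0.86 after glucose oxidase and between -1.10 and -1.71 after the combined treatment. Gins2 shares 70.3% of its stretches with Gse1, an overlapping gene on the other strand.

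Gins4, the fourth subunit of the same complex, stood apart from its partners. It had 1097, 1057 and 948 reads, at 1.03 (0.946 to 1.12) and 0.859 (0.786 to 0.937) of control, and shares no stretch with another gene. Its small excess after glucose oxidase turned below 0 with total-count scaling.

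The polymerase genes divided within each enzyme. Pole, the catalytic subunit of the leading-strand polymerase epsilon (ENSMUSG00000007080.14, chromosome 5, 110286306 to 110337474), had 1304, 447 and 167 reads, at 0.366 (0.328 to 0.408) and 0.127 (0.108 to 0.150) of control. Its partner Pole2 had 223, 144 and 134 reads, with log2 ratios of -0.51 and -0.70. Pole2 shares 11.8% of its stretches with Gm49384, an overlapping gene on the same strand. The reads of Pole2 per read of Pole were 0.171 in control (0.148 to 0.197), 0.322 after glucose oxidase (0.265 to 0.390) and 0.802 after the combined treatment (0.634 to 1.01). Of the members, only Cdc6 had a lower ratio than Pole with the combined treatment.

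Polymerase alpha-primase, which makes the RNA-DNA primers, showed the same kind of division. Pola1, its catalytic polymerase subunit, had 998, 418 and 343 reads, and Prim1, the catalytic primase, had 762, 325 and 185; both were lower in each treated library. Prim2, the large primase subunit, had 651, 398 and 301 reads and was lower with the combined treatment. Pola2, the regulatory subunit, had 1605, 1601 and 1519 reads, and its interval included equal levels in both comparisons, with 0.940 (0.876 to 1.01) for the combined treatment.

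In polymerase delta, which copies the lagging strand, the catalytic Pold1 had 1381, 906 and 626 reads, and its log2 ratio with the combined treatment was -1.14. The accessory subunits were within the limit: Pold2 had 1720, 1326 and 1307 reads, and Pold3 had 918, 879 and 1040. Among the members of each of these 3 polymerases the lowest with the combined treatment was a catalytic subunit. Of the small accessory subunits, which are in a wider list and were picked out after their values were seen, Pold4 had log2 ratios of 0.90 and 0.98, Pole4 0.72 and 0.84, and Pole3 -0.18 and -0.55.

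The sliding clamp and its loader had, after licensing, the median log2 ratios closest to control of the 8 role groups, -0.40 and -0.54. Pcna, the ring that tethers polymerases to DNA, had 3808, 2777 and 2760 reads and log2 ratios of -0.36 and -0.47; it shares 31.8% of its stretches with the pseudogene Pcna-ps2. Of the 5 loader genes 1 was lower with the combined treatment: Rfc5, with 1086, 593 and 474 reads, at 0.584 (0.527 to 0.646) and 0.434 (0.388 to 0.484) of control. Rfc3 lay just inside the limit, at -0.99, with 1113, 734 and 557 reads. Rfc4 had 386, 262 and 250 reads and Rfc1, the large subunit, 3859, 2976 and 2940. Rfc2 was closest to control, with 2152, 1752 and 1645 reads, at 0.870 (0.817 to 0.927) and 0.760 (0.712 to 0.810). Every gene of this group was below control in both treated libraries, under each scaling tried.

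On the lagging strand, Lig1, the ligase that seals Okazaki fragments, had 1960, 747 and 525 reads, at 0.407 (0.374 to 0.443) and 0.266 (0.241 to 0.293) of control. Fen1, the nuclease that trims their flaps, had 244, 88 and 73 reads and was also lower in both, but it shares 81.2% of its stretches with overlapping genes on the other strand, Gm10143 and Tmem258. The single-strand binding complex RPA was split like the polymerases. Rpa2 had 546, 262 and 176 reads, with log2 ratios of -0.94 and -1.59, and Rpa1, the large subunit, had 5748, 4092 and 4050, with -0.39 and -0.51. Rpa3, the small subunit, was the nearest to control, with 457, 407 and 431 reads, at 0.952 (0.831 to 1.09) and 0.937 (0.820 to 1.07).

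All 5 nucleotide supply genes were below control in both treated libraries. Tk1, the cytosolic thymidine kinase of the salvage route (ENSMUSG00000025574.13, chromosome 11, 117815526 to 117826092), had 1519, 490 and 301 reads, at 0.345 (0.311 to 0.382) and 0.197 (0.173 to 0.223) of control. The ribonucleotide reductase subunits, which make deoxynucleotides from ribonucleotides, were both lower with the combined treatment. Rrm1, the large subunit, had 7080, 3674 and 2519 reads and Rrm2, the small one, 3692, 1567 and 1134. Their log2 ratios, -1.50 and -1.70, were 0.21 apart, the smallest spread with the combined treatment among the 10 complexes compared. The complexes had 2 to 6 genes among the members, and a spread from lowest to highest tends to widen with more genes.

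Tyms and Dut were within the limit. Tyms, which makes thymidylate from deoxyuridylate, had 1978, 1175 and 1204 reads and log2 ratios of -0.65 and -0.72. Dut, which clears dUTP, had 1099, 790 and 779 reads, at 0.768 (0.7 to 0.843) and 0.704 (0.642 to 0.773) of control. For both, the interval between the treated libraries included equal levels, at 0.952 (0.878 to 1.03) and 0.917 (0.829 to 1.01).

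Among genes that restore chromatin and DNA methylation, Uhrf1, which recruits the maintenance methyltransferase to newly copied DNA, had 2216, 971 and 679 reads, at 0.468 (0.434 to 0.505) and 0.304 (0.279 to 0.332) of control. Dnmt1, that methyltransferase, had 6918, 4364 and 3871 reads and log2 ratios of -0.57 and -0.85. The histone chaperone CAF-1 differed by subunit with the combined treatment: Chaf1a had 1430, 688 and 462 reads, a log2 ratio of -1.62, and Chaf1b had 1053, 662 and 694, at 0.672 (0.609 to 0.741) and 0.655 (0.594 to 0.721) of control. Chaf1a shares 48.0% of its stretches, mostly with Ubxn6 on the other strand.

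Set directly against each other, the treated libraries differed in their labels by the Et2HOBA exposure. With 1 library each and no order or time of harvest given, that exposure cannot be told apart from other differences between the cultures. Of the 50 members 46 had a negative log2 ratio, as did 9135 of all 18287 listed genes. Cdc6 was lowest, at -2.11, followed by Pole at -1.47, with 0.347 (0.289 to 0.416) of the level after glucose oxidase. Mcm5 and Cdc45 followed, at -1.21 and -1.12, with 0.426 (0.380 to 0.477) and 0.444 (0.366 to 0.537) of that level. At a limit of 0.5, 22 members were lower, where 12% of all genes were, and 0 higher, where 13.6% were. At a limit of 2 only Cdc6 was lower, where 0.0383% of all genes were. The 4 above 0 were Cdt1 at 0.33, Orc4 at 0.30, Pold3 at 0.14 and Orc3 at 0.01, the last of which turned below 0 with total-count scaling. The authors' deposited table of this comparison lists 7 genes, none a member. With the transformation of the other deposited tables, recomputed for all genes of this pair, 0 members were lower by 1, where 0.0383% of all genes were. The recomputed values were not compared with the 7 listed genes.

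Genes of the wider pathway were examined in 4 lists, whose counts stand beside 8.6% of all genes lower and 4.07% higher after glucose oxidase, and 8.04% lower and 6.66% higher after the combined treatment. Of 29 other fork and origin factors, 6 were lower after glucose oxidase and 10 after the combined treatment, with 0 higher and medians of -0.42 and -0.63. The largest differences were in Pclaf, a PCNA-binding factor, with 1134, 259 and 113 reads, Clspn, the checkpoint mediator claspin, with 808, 244 and 99, Top2a, the topoisomerase that untangles copied DNA, with 6671, 1842 and 1048, and Ticrr, which acts in origin firing, with 403, 120 and 61. With the combined treatment Rnaseh2b was closest to control, with 292, 247 and 271 reads.

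Of 29 other nucleotide enzymes, among them those of purine and pyrimidine synthesis, 0 were lower after glucose oxidase and 1 after the combined treatment, against 8.6% and 8.04% of all genes, with 0 higher and medians of 0.03 and 0.08. The 1 was Shmt1, a folate enzyme that feeds thymidylate synthesis, with 464, 251 and 221 reads, and Dck, the deoxycytidine kinase, was closest to control with the combined treatment but not after glucose oxidase, with 955, 730 and 947.

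Of 19 E2F, pocket protein and MuvB genes, the regulators of cell cycle transcription, 3 and 5 were lower, against 8.6% and 8.04% of all genes, and 0 higher, with medians of -0.15 and -0.35. Mybl2 had 451, 141 and 81 reads, E2f7, a repressor of the family, 472, 159 and 91, Foxm1, a factor of mitotic genes, 1801, 765 and 516, and Tfdp2, an E2F partner, 642, 382 and 254. With the combined treatment Lin52 was closest to control, with 261, 265 and 273 reads. Of 13 other genes of chromatin copying and DNA methylation, 2 were lower in each treated library, against the same shares of all genes, and 0 higher, with medians of -0.36 and -0.63. Asf1b, a histone chaperone, was 1 of them in both, with 573, 170 and 79 reads; Nasp, another histone chaperone, was closest to control with the combined treatment, with 1312, 1243 and 1211.

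**Figure D4:**
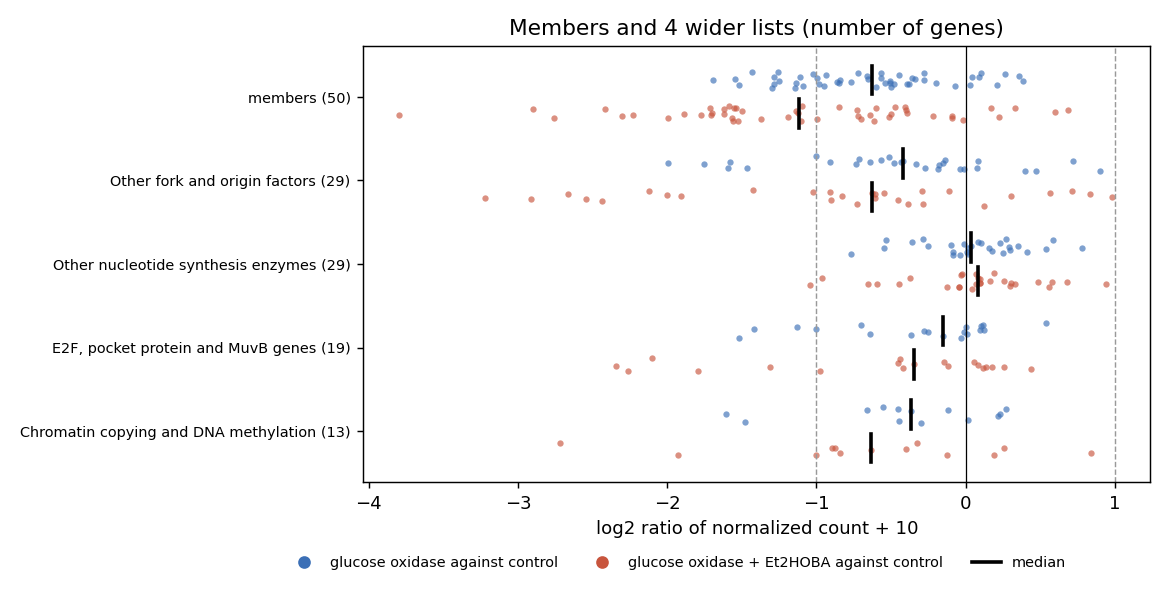
Log2 ratio of normalized count plus 10 (horizontal axis) against control for the 50 members and the genes of the 4 wider lists, after glucose oxidase (blue) and the combined treatment (red); each point is 1 gene, black bars are medians and dashed lines mark -1 and 1. The nucleotide synthesis enzymes centre near 0, with medians of 0.03 and 0.08, while the members have medians of -0.63 and -1.11.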

How the data were processed

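Polyadenylated RNA of 3 libraries was prepared with a stranded kit, per the labels' protocols. STAR, featureCounts and the build mm10 are named in the submitters' processing notes; versions and counting settings are not given in the sources used here. The authors deposited raw read counts of the control and combined-treatment libraries, log-normalized values and log2 differences for 18287 genes, per the file headers, and a symbol with a log2 difference for glucose oxidase against control. Reads of the library given glucose oxidase alone were obtained by inverting the inverse hyperbolic sine form of the deposited values: 100% of 18275 genes matched by symbol came out within 0.01 of a whole read, against 3.31% with control counts raised by 1, and 12 more genes were placed by whole reads. The fast variance-stabilizing transformation of DESeq2 1.42.0 then gave the deposited log2 differences of both comparisons against control within 2e-08. Values on the deposited scale between the treated libraries come from the same transformation and were not compared with the deposited table.

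Size factors were medians of ratios over all genes and the 3 libraries (1.03, 0.965 and 1.04 for control, glucose oxidase and combined treatment). A pseudocount of 10 and a limit of 1 log2 unit were used. No test was run, since a count model needs replicates to estimate the spread between samples. The inversion was tested on simulated data. Coordinates are those of the deposited table; the 50 members matched GENCODE release M21 (GRCm38) by versioned ID, and its transcripts gave lengths and shared 50-base stretches on either strand. Members and lists were chosen with earlier results of these data known. All members are named; from each wider list the text names up to 4 genes with the largest ratio past the limit with the combined treatment and the 1 with the smallest, at a mean normalized count of at least 100. One gene that this rule names is not reported here. Alternatives were other pseudocounts, scalings, limits, gene subsets and the scale of the deposited tables.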

Additional observations from a re-analysis of the deposited data

How the results depend on the processing

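No paired analysis was possible because each group has 1 library, and for the same reason no library could be left out. The medians of the members ran from -0.46 to -0.68 after glucose oxidase and from -0.92 to -1.26 with the combined treatment over the alternatives. Between the treated libraries the median was -0.14 on the deposited scale and -0.33 to -0.50 otherwise. No member past the limit changed direction under any alternative. Of 150 member ratios, 61 moved beyond their counting interval on the scale of the deposited tables, 32 with total-count scaling, which shifts the median of all genes to -0.13 with the combined treatment, 10 with a pseudocount of 50, and 0 with a pseudocount of 1 or TMM scaling (edgeR 4.0.16).

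Counts of lower members depended on the limit and the scale. After glucose oxidase, 14 became 31 when 0.5 was the limit, 0 when 2 was, and 7 on the deposited scale. With the combined treatment, 27 became 6 with 2 as the limit, and with 0.5 there were 2 higher members, Orc4 and Cdt1. Between the treated libraries, 4 became 22 and 1 with these limits and 0 on the deposited scale. Over the 16 members with no shared stretch, 2, 7 and 0 were lower in the 3 comparisons. Of all genes 8.6%, 8.04% and 2.15% were lower there. Over the 30 with no exon overlap and under 10% shared stretches, a subset added after the data were seen, 8, 16 and 2 were lower. Both subsets hold fewer genes, but after glucose oxidase the 2 of 16 were also a smaller share than the 14 of 50. Counting error is largest for the 4 members under 100 reads with the combined treatment, Cdc6, Fen1, Gins1 and Orc1. Shares of stretches above 10% that were not given with their genes were those of Orc2 (21.6%), Rfc2 (19.8%), Uhrf1 (18.9%) and Rfc4 (11.1%). Versions or settings of the counting step could not be varied.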

Other observations

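Several members have a close relative in the wider lists that is known to act outside S phase or in mitochondria, and 4 such pairs were looked at after their values were seen. In each pair the member or S-phase gene was lower in both treated libraries and the relative was within the limit. Rrm2, at 0.454 and 0.305 of control, was set beside Rrm2b, the p53-inducible small subunit of ribonucleotide reductase, which had 1046, 1183 and 1481 reads (control first, combined treatment last) and lay at 1.21 (95% interval 1.11 to 1.32) and 1.41 (1.30 to 1.52) times control. Tk1 was set beside Tk2, the mitochondrial thymidine kinase, with 617, 872 and 1201 reads, at 1.51 (1.36 to 1.68) and 1.93 (1.75 to 2.13) times control.

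Uhrf2, a relative of Uhrf1, had 3479, 3928 and 6287 reads, at 1.21 (1.15 to 1.26) and 1.80 (1.72 to 1.87) times control. Asf1b lay at 0.317 and 0.137 of control, while Asf1a, its paralog, had 578, 631 and 696 reads, at 1.17 (1.04 to 1.31) and 1.2 (1.07 to 1.34). All 4 relatives lay above control in both treated libraries, within the limit. Their counting intervals lay wholly above equal levels, as for 29.7% of all genes after glucose oxidase and 33.2% after the combined treatment. Relatives of other members in the wider lists lay below control in both. Dnmt3a had log2 ratios of -0.66 and -0.63, and Dnmt3b -0.30 and -0.89. Mcm8 had -0.04 and -0.61, and Mcm9 -0.15 and -0.28. The intervals are exact Clopper-Pearson intervals for counting error, and no replicate bears on these differences.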
